A study of Mus musculus with 15 samples.

Results

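The genes described here are 39 genes of the type I interferon response, chosen by name, out of 42454 entries in a table of macrophage RNA-seq from mouse ear skin. All 39 names were found in the table exactly as spelled. Values are normalized counts, meaning reads per gene scaled by a single factor in each library, and are given for replicates 1, 2 and 3 of a group in that order unless stated. A gene was tested when its mean over the 15 libraries was 100 normalized counts or more. Of the 39 genes 33 were tested, among 8656 tested genes in all, and Ifit3b, Isg20, Mx1, Mx2, Ifi44 and Ifi47 were below that level.

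The mice carried CX3CR1-creERT2/gfp and R26-tdT/+, so that GFP and a tamoxifen-inducible Cre were driven from the Cx3cr1 locus and Cre activity left a tdTomato label. Every animal received tamoxifen, and the left ear was punched 3 weeks later. Ear skin was taken 10 days after the punch on the left, with the right ear left intact, and CD11b-positive, CD64-positive, lineage-negative macrophages were sorted. The 5 groups of 3 libraries were interstitial macrophages (GFP-/Tomato- gate) without punch (IM) and with punch (injIM), resident nerve-associated macrophages (GFP+/Tomato+ gate) without punch (sNAM) and with punch (injsNAM), and recruited nerve-associated macrophages after the punch (GFP+/Tomato- gate, recsNAM). Groups were taken from the titles. The reporter field gives GFP+/Tomato+ for injIM and GFP-/Tomato- for sNAM, against the sorting gates. The unpunched side is the other ear of punched animals, age and sex are not given in the labels, and the libraries came from 3 mice without a record of which library came from which animal. The p-values measure the spread between these libraries, which share animals.

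Recovered depth was 20.4 to 23.8 M reads per library in IM, injIM and recsNAM, 16.9 to 19.5 M in injsNAM and 5.64 to 18.6 M in sNAM. The sNAM libraries stood apart, with 3.89% to 25.8% of tested genes at 0 reads, against 0.139% to 0.277% in IM and injIM, 0.370% to 0.751% in recsNAM and 4.26% to 8.79% in injsNAM. Among all 39 interferon genes, 9 to 10 had no read in each sNAM library, 2 to 6 in injsNAM and 1 to 3 in the other libraries. These counts include the 6 members below the filter, unlike the shares of tested genes. The macrophage markers Adgre1, Csf1r, Fcgr1, Mertk and Itgam had reads in all 15 libraries. In bulk libraries of sorted cells, fewer cells expressing a gene and less of its RNA per cell cannot be told apart.

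Type I interferons are secreted proteins that bind a receptor made of the chains IFNAR1 and IFNAR2. The receptor activates the kinases JAK1 and TYK2, which phosphorylate STAT proteins such as STAT2, and these join IRF9 in a complex that binds the interferon-stimulated response element in front of target genes. The targets include sensors of viral RNA, enzymes that block viral replication and feedback inhibitors, and macrophages are among the cells that keep a low level of this program without infection.

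A sequence feature shared by many of these genes is shown first, since the response element is how the pathway recognises its targets. The interferon-stimulated response element was searched as GAAA, any 2 bases and GAAA again, a simplified core of its known form, which was looked for on both strands, with overlapping matches allowed. RefSeq promoter windows on GRCm38.p6, from 250 bases before to 50 bases after an annotated start, matched 29 of the 39 genes. Of these 29, 15 (51.7%) held at least 1 match, against 1079 of 27025 genes (3.99%) with such windows. The 15 were Isg15, Oas1a, Oas3, Ifit1, Ifit3, Ifit3b, Ifih1, Ddx58, Eif2ak2, Bst2, Ifitm3, Rsad2, Stat2, Ifi205 and Trim30a. Isg15 held 3 overlapping matches, Oas3 held 1, and Ifit3 and Ifit3b held 2 each on the reverse strand, which reads TTTC, 2 bases and TTTC on the strand shown. No match was found in the window of Oasl1, nor in those of Irf7, Ifnar1 or Ifnar2. A match is a description of letters and does not show binding. The windows of Isg15 and the Ifit3 pair show the repeated matches, and those of Oas3 and Oasl1 belong to the pair of genes that passed the test in injured interstitial macrophages. They are printed 5′ to 3′ on the strand of the gene, with matches in capitals.
Isg15 (chr4:156200769-156201068, minus strand): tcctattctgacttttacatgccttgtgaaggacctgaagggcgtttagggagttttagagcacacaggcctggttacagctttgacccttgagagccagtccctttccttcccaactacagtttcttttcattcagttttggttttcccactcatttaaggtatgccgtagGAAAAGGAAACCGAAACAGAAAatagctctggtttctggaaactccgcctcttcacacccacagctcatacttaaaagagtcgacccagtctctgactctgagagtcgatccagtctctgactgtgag
Oas3 (chr5:120777610-120777909, minus strand): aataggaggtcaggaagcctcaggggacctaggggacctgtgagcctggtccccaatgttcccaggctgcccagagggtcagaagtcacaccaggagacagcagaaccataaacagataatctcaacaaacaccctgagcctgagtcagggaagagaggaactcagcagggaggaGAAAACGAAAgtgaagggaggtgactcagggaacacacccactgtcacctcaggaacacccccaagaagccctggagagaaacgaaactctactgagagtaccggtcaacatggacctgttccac
Oasl1 (chr5:114922990-114923289, plus strand): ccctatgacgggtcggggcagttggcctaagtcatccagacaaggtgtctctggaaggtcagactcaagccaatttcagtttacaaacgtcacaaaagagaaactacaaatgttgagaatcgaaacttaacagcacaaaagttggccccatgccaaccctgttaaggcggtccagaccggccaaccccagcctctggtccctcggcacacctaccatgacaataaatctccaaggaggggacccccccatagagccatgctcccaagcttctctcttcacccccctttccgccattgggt
Ifit3 (chr19:34583279-34583578, plus strand): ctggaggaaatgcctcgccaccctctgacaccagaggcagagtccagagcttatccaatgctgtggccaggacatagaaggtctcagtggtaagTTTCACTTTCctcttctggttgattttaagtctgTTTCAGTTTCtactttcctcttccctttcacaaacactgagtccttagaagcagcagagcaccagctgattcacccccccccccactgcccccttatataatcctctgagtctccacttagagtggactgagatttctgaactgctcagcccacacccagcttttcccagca
Ifit3b (chr19:34607707-34608006, plus strand): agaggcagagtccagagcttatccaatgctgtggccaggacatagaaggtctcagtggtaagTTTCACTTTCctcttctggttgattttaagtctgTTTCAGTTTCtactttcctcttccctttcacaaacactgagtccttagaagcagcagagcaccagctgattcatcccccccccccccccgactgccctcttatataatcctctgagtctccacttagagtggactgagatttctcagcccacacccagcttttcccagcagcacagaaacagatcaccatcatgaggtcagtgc

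Counted from the annotated start, the Isg15 matches began at positions -78 to -66, and the Oas3 match at -75. Those of Ifit3 began at -156 and -122, and those of Ifit3b at -188 and -154. The Ifit3 and Ifit3b windows shared an identical run of 169 bases that holds both matches. Their transcripts are also alike, 51.2% of the 50-base words of Ifit3 transcripts being present in Ifit3b, so the division of reads between them is uncertain. The same holds for Oas1a, 57.6% of whose 50-base words occur in Oas1g.

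The receptor chains were among the 4 most abundant members per kilobase of merged exons. Ifitm3 had 4047 normalized counts per kilobase averaged over the 15 libraries, Ifnar2 had 1777, Bst2 1347, Ifnar1 1075 and Oasl1 922. Ifnar2, the chain with the high ligand affinity (chromosome 16, 91372783 to 91405589, GRCm38), measured 4829, 4931 and 4993 normalized counts in IM and 4884, 4738 and 5157 in injIM. The recruited cells gave 6445, 6801 and 7077. The resident nerve-associated libraries gave 6804, 8157 and 4574 in sNAM and 4784, 7643 and 6916 in injsNAM. The recsNAM libraries all lay above those of IM and injIM, and the sNAM and injsNAM libraries overlapped every group. Ifnar1, the other chain of the receptor (chromosome 16, 91485032 to 91510523), measured 4767, 5417 and 3594 in IM, 5803, 6981 and 5025 in injIM and 8416, 9976 and 5839 in recsNAM. The values were 7816, 2777 and 4740 for sNAM and 11100, 7550 and 6000 for injsNAM, so that its groups overlapped apart from recsNAM and injsNAM lying above IM. An annotated long noncoding RNA, Gm36587, overlaps Ifnar2 and averaged 272 normalized counts. Reads in the overlap cannot be assigned to either gene here, and the strand setting of the counting is not given in the sources used.

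Among the transcription factors, Irf7 was the most abundant and was uneven between libraries of a group. Irf7, the factor that amplifies interferon production (chromosome 7, 141263183 to 141266499), measured 497, 2199 and 374 normalized counts in IM, 2327, 1089 and 3310 in injIM and 3233, 1378 and 4167 in recsNAM. It measured 267, 5027 and 883 in sNAM and 3250, 753 and 4143 in injsNAM. Replicate 2 was the high library in IM and sNAM and the low library in injIM, injsNAM and recsNAM, and every group overlapped every other. Irf9, the DNA-binding partner of the STATs (chromosome 14, 55603985 to 55610030), was steadier outside the resident nerve-associated gate, with 581, 439.9 and 535 in IM, 811, 603 and 591 in injIM and 999, 912 and 1033 in recsNAM. These 3 groups did not overlap, and sNAM spanned the whole range with 1364, 0 and 1021, injsNAM lying at 988, 827 and 429.9. Stat2 (chromosome 10, 128270498 to 128292853) measured 546, 826 and 305 in IM, 543, 613 and 501 in injIM and 809.8, 465 and 459.6 in recsNAM. Its sNAM values were 273, 492 and 598 and its injsNAM values 1337, 568 and 96.8, with all groups overlapping.

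**Figure D1:**
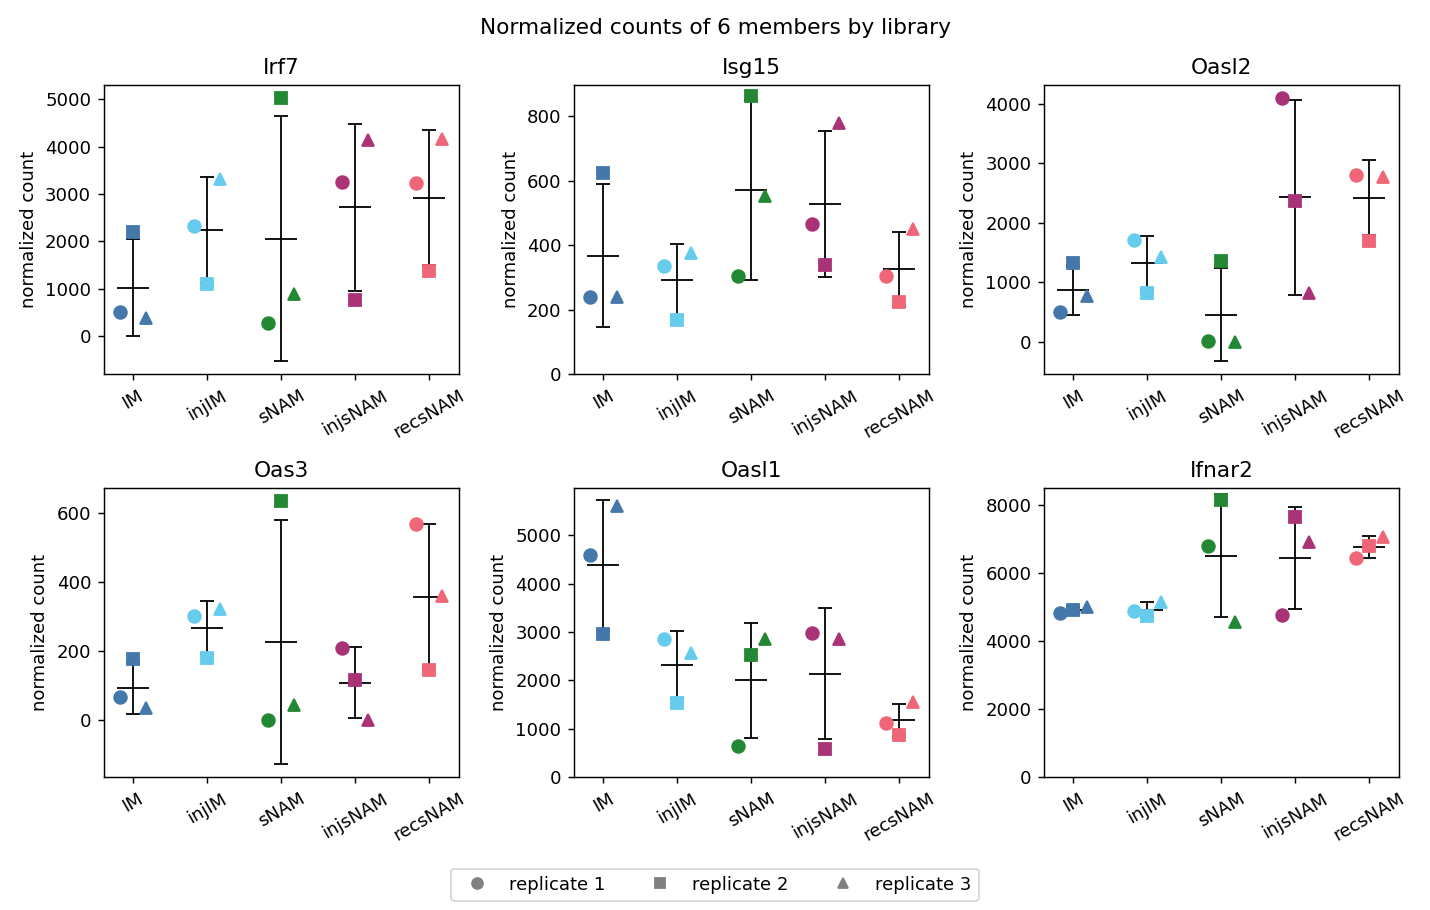
Normalized counts (y axes) of Irf7, Isg15, Oasl2, Oas3, Oasl1 and Ifnar2 in the 5 groups (x axes). Points are libraries with a marker per replicate number, and horizontal lines with bars are the mean and SD of 3 libraries. Irf7 of IM is high in replicate 2 only (2199 against 497 and 374), while Ifnar2 of recsNAM lies above all IM and injIM libraries.

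The ISG15 system attaches and removes a ubiquitin-like tag that interferon induces. Isg15 itself (chromosome 4, 156199424 to 156200818), whose promoter is printed above, measured 239, 625 and 240.3 in IM, 335, 167 and 377 in injIM and 306, 223 and 451 in recsNAM. It reached 304, 862 and 551 in sNAM and 465, 338 and 778 in injsNAM. As for Irf7, replicate 2 was the high library in IM and sNAM and the low one in the 3 groups of the punched ear. Usp18, which removes the tag and blocks receptor signalling, ranged between 82.8 and 208 in IM, between 93.9 and 321 in injIM and between 121 and 264 in recsNAM, and from 47.5 to 934 in the resident nerve-associated libraries. Herc6, the mouse ligase for the tag, measured 372, 339 and 297 in IM and 617, 367 and 437 in injIM. Herc6 gave 276, 353 and 441 in recsNAM, 506, 984 and 25.9 in sNAM and 836, 6.86 and 528 in injsNAM, with 1 low library in each resident nerve-associated group.

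The members grouped here as nucleic acid sensors, without the OAS family, are 5 genes that measured at most 1013 normalized counts in any library. Ifih1 (MDA5, a sensor of long double-stranded RNA) measured 153, 339 and 442 in IM and 945, 533 and 453 in sNAM, which lay above it without overlap. Ifih1 was 532, 210 and 230 in injIM, 337, 163 and 703 in injsNAM and 297, 238 and 196 in recsNAM. Ddx58 (RIG-I, a sensor of RNA ends) measured 272, 509 and 363 in IM, 503, 361 and 329.5 in injIM and 445, 211 and 346 in recsNAM. In the resident nerve-associated libraries Ddx58 was either near these values or almost absent, with 3.85, 0 and 448 in sNAM and 417, 6.86 and 504 in injsNAM. Dhx58 (LGP2, the regulator of both sensors) had no read in any sNAM library and measured 40.5, 0 and 291 in injsNAM. It measured 150.3, 343 and 159.9 in IM, 435, 174 and 306 in injIM and 559, 204 and 501 in recsNAM. Eif2ak2 (PKR, the RNA-activated kinase that halts translation) measured 256, 334 and 175 in IM, 357, 354 and 255 in injIM and 189, 243 and 298 in recsNAM. It was scattered over 716, 0 and 68.5 in sNAM and 264, 1013 and 299.7 in injsNAM. Zbp1, a sensor that triggers cell death, measured 54.1, 333 and 134 in IM, 234, 227 and 475 in injIM and 304, 369.7 and 479 in recsNAM.

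The OAS family senses double-stranded RNA and makes a nucleotide messenger of antiviral defence. Oasl1, which in mice restrains Irf7 translation (chromosome 5, 114923143 to 114937911), measured 4587, 2961 and 5606 in IM, 2853, 1535 and 2571 in injIM and 1124, 874 and 1546 in recsNAM. All IM libraries lay above all injIM and recsNAM libraries, and injIM and recsNAM overlapped by 1 library each. The resident nerve-associated values were 637, 2518 and 2849 in sNAM and 2970, 582 and 2864 in injsNAM. Oas3 (chromosome 5, 120753098 to 120777684) went the other way at a far lower level, with 65.9, 178 and 34.6 in IM, 301, 179 and 323 in injIM and 567, 146 and 359.9 in recsNAM. IM and injIM were separated only narrowly, IM replicate 2 at 178 and injIM replicate 2 at 179. Oas3 measured 0, 635 and 44.4 in sNAM and 208, 116 and 0.856 in injsNAM. Oasl2, an active family member, measured 494, 1314 and 772 in IM, 1716, 825 and 1427 in injIM and 2798, 1697 and 2767 in recsNAM, with neighbouring groups overlapping and recsNAM above IM. It was almost absent in 2 sNAM libraries (4.82, 1356 and 0) and measured 4097, 2360 and 821 in injsNAM. Oas1a measured 328, 514 and 414 in IM, 638, 444 and 872 in injIM and 1037, 564 and 1092 in recsNAM. In Oas2 the highest library was injsNAM replicate 1 with 2464, where IM lay between 143 and 441 and recsNAM between 365 and 459.

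The IFIT proteins bind viral RNA that lacks the cap marks of host messengers. Ifit1 measured 563, 518 and 596 in IM, 749, 256 and 395 in injIM and 254, 470.3 and 253 in recsNAM. Ifit1 gave 2.89, 2055 and 248 in sNAM and 550.1, 378 and 1888 in injsNAM. Ifit3 measured 149, 503 and 56.2 in IM, 319.5, 51.8 and 248 in injIM and 185, 162 and 221 in recsNAM. In sNAM it had reads in 1 library only (0, 451 and 0), and in injsNAM it measured 101, 96.1 and 220.1. Ifit2 measured 62.5, 298 and 51.9 in IM, 324, 121 and 292 in injIM and 201, 211 and 219.9 in recsNAM, against 0, 52.4 and 0 in sNAM and 396, 9.81 and 588 in injsNAM. Ifit3b reached at most 97.9 and had no read in sNAM. Ifit3b measured 11, 97.9 and 25.9 in IM and 61.6, 8.09 and 31.9 in injIM. For both genes replicate 2 was the high library of IM and the low library of injIM.

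The dynamin-like GTPases Mx1 and Mx2, which block virus particles in other mouse strains, are annotated as transcribed pseudogenes in RefSeq's GRCm38 and were below the filter. Mx1 measured 66.7, 91.3 and 13.8 in IM, 176, 51.0 and 128 in injIM and 49.1, 88.9 and 161 in recsNAM. In the resident nerve-associated libraries Mx1 measured 0.963, 0 and 0 in sNAM and 381, 259 and 0 in injsNAM. Mx2 measured 31.2, 43.8 and 16.4 in IM, 41.9, 19.4 and 26.6 in injIM and 0, 0 and 2.93 in recsNAM. For sNAM the Mx2 values were 52.0, 1167 and 9.25, and for injsNAM 1.76, 0 and 15.4. Ifi47, an immunity-related GTPase, was listed at 0 in all 15 libraries, where 3 reads would be worth 2.19 to 8.73 normalized counts. The DNA-binding PYHIN proteins were represented by Ifi204, with 939, 715 and 1094 in IM, 965, 780.2 and 831 in injIM and 667, 663 and 624 in recsNAM. Ifi204 of recsNAM lay below every IM, injIM and injsNAM library, the last at 976, 764 and 1078, and sNAM measured 230.3, 696 and 607. Ifi205 measured 65.9, 243 and 83 in IM, 246, 88.2 and 206 in injIM and 74, 226 and 275 in recsNAM, and 101, 751 and 113 in sNAM and 196, 174 and 374 in injsNAM. A share of 5.44% of the 50-base words of Ifi204 and 6.28% of those of Ifi205 occur in Mndal, another gene of the cluster.

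Restriction factors in membranes were detected in every library. Ifitm3, which stops viruses at the endosome, measured 2006, 3543 and 3242 in IM, 3180, 1679 and 3637 in injIM and 2203, 1364 and 3838 in recsNAM. Its values were 649, 5022 and 3956 in sNAM and 1829, 1971 and 3040 in injsNAM. Bst2 (tetherin, which holds budding virus at the cell surface) measured 1238, 1301 and 1073 in IM, 1156, 757 and 1449 in injIM and 1352, 895 and 2099 in recsNAM. Bst2 gave 557, 1121 and 1051 in sNAM and 1407, 950.1 and 1834 in injsNAM, and no pair of groups was separated for either gene.

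Rsad2 (viperin, which makes a chain-terminating nucleotide) and its neighbour Cmpk2 (a kinase that supplies the substrate, chromosome 12) form a pair of effectors. Rsad2 measured 1204, 2345 and 1101 in IM, 2076, 584 and 1805 in injIM and 807, 254 and 1246 in recsNAM. It gave 928, 2099 and 986 in sNAM and 816, 9.81 and 3559 in injsNAM. Cmpk2 measured 409.6, 353 and 81.3 in IM, 327, 55.8 and 259 in injIM and 188, 103 and 158 in recsNAM. It had no read in any injsNAM library and in 2 of the 3 sNAM libraries (96.1 in replicate 2), so that injsNAM lay below injIM and recsNAM without overlap. For Isg20, an RNA-degrading enzyme below the filter, values ran from 0 to 232.

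The remaining members varied in the same manner. Parp14, an ADP-ribosyltransferase (chromosome 16, 35831892 to 35871518), measured 732, 879.7 and 1106 in IM, 1206, 1264 and 641 in injIM and 399, 290.1 and 495 in recsNAM, which lay below both. In the resident nerve-associated libraries it spanned 2594, 4160 and 16.7 in sNAM and 1310, 2018 and 110.5 in injsNAM. Trim30a, a negative regulator of innate signalling, measured 1580, 2696 and 1271 in sNAM against 495, 778 and 776 in IM, without overlap. Trim30a gave 752, 512 and 732 in injIM, 187, 981 and 1946 in injsNAM and 477, 673 and 1189 in recsNAM. Ifi35 likewise measured 812, 2451 and 760.5 in sNAM against 397, 459.6 and 419 in IM. Tor3a measured 1156, 756 and 1034 in injIM and 600.3, 722 and 709 in recsNAM, also without overlap. Rtp4 measured 354, 370.4 and 209 in IM and 671, 291 and 742 in injIM, and Xaf1, a promoter of cell death, 117, 273 and 126 in IM and 185, 93.9 and 389.5 in injIM. Ifi44 had no read in 7 libraries and measured 293, 48 and 141 in injsNAM.

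**Figure D2:**
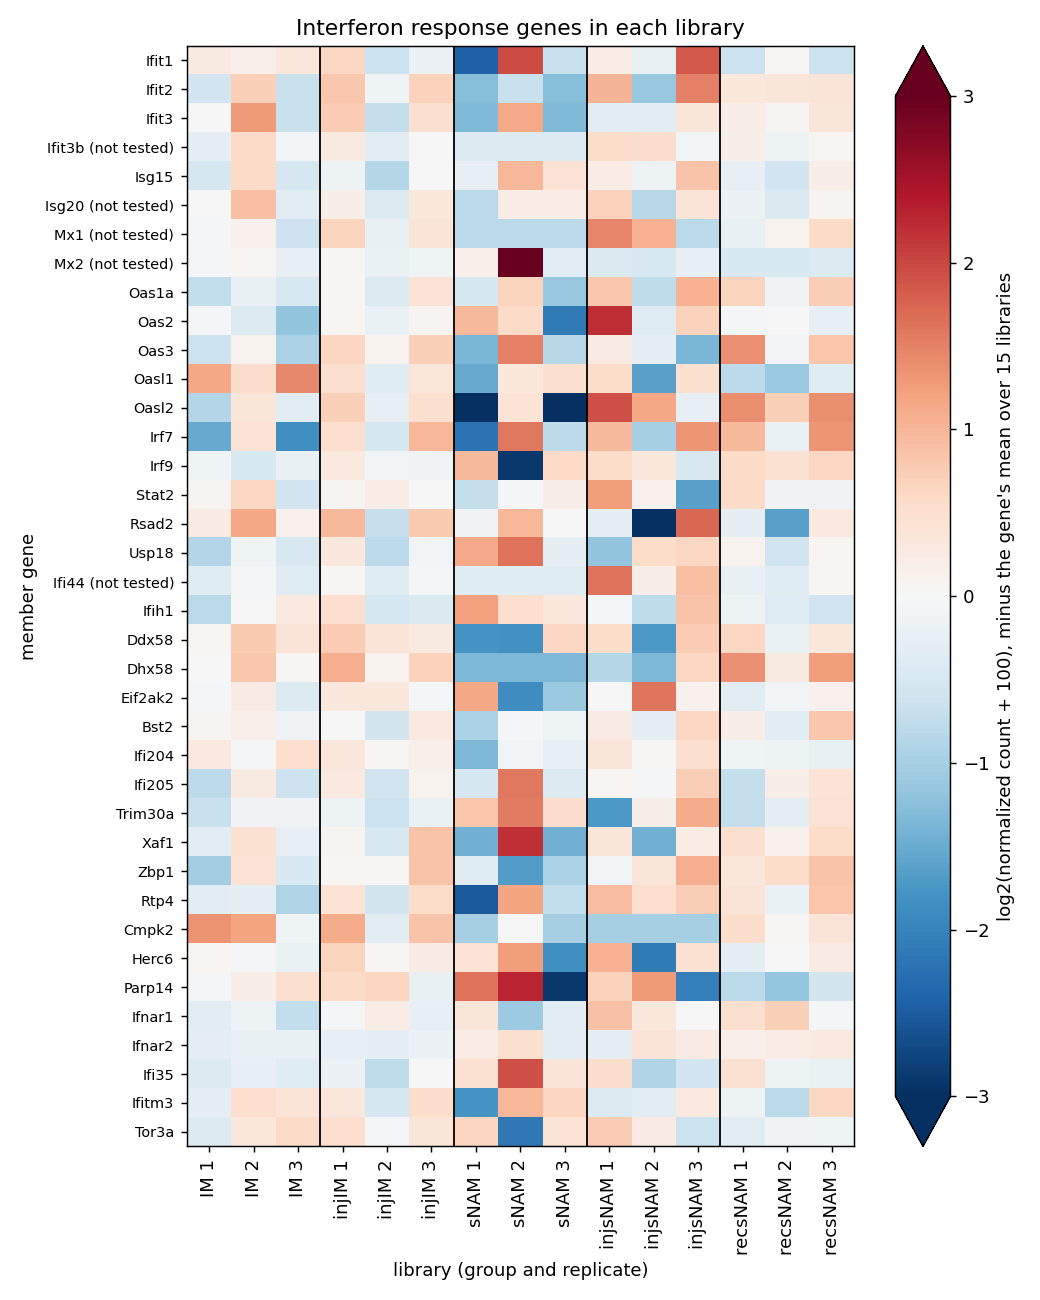
Each cell is log2(normalized count + 100) of 1 member (rows) in 1 library (columns), minus that member's mean over the 15 libraries; red is above and blue below the mean, on a scale limited to 3 in either direction. Ifi47, with no reads, is left out, and members below the filter are marked. Columns of IM replicate 2 and sNAM replicate 2 are mostly red within their groups, and those of injIM, injsNAM and recsNAM replicate 2 mostly pale or blue.

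Within groups, many members were high or low in the same library. In IM, 22 of the 33 tested members had their highest value in replicate 2, which held the group's highest value for 40.6% of all tested genes. In injIM, 27 of 33 were lowest in replicate 2, against 29.9% of all tested genes, and none was lowest in replicate 1. In recsNAM, 18 of 33 were lowest in replicate 2 (31.3% of all tested genes) and 19 were highest in replicate 3 (33.1%). The median member lay 0.31 above its IM mean in replicate 2 and at -0.45 from its injIM mean in replicate 2, on the log2(normalized count + 100) scale, where the corresponding median of all tested genes was 0.02 in both libraries. These counts describe the libraries and carry no test.

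The same held in part for the nerve-associated gates. In sNAM, 22 of 33 were highest in replicate 2 (29.9% of all tested genes), and in injsNAM 19 of 33 were lowest in replicate 2 (31.1%) and 17 highest in replicate 3 (31.8%). The median SD of a member within a group was 0.43 in IM, 0.46 in injIM and 0.39 in recsNAM on the log2 scale, against 0.19, 0.20 and 0.28 for all tested genes. In sNAM and injsNAM it was 1.11 and 0.89 against 0.84 and 0.61. The typical member was about as abundant as the typical tested gene, the medians of the mean normalized count being 587 and 633. A separate list of 50 tested interferon-stimulated genes that are not among the 39 showed 28 of 50 highest in IM replicate 2, 35 of 50 lowest in injIM replicate 2 and 27 of 50 lowest in recsNAM replicate 2. The resident nerve-associated libraries gave 23 of 50 highest in sNAM replicate 2, and injsNAM replicate 2 holding the lowest value for 19 and the highest for 15, with a median deviation of 0.02.

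Markers of other cells also differed between these libraries. In IM replicates 1, 2 and 3, keratinocyte markers summed to 8.62, 168 and 25.7 CPM (reads per 1 M recovered reads) and monocyte markers to 32.7, 114 and 7.76. In sNAM, replicate 2 had the lowest depth (5.64 M reads), the highest mast cell sum (1828 CPM, against 0.161 and 127) and the highest monocyte sum (229 against 58.9 and 92.4). T and NK cell markers summed to 174, 9.58 and 387 in sNAM and to 460.2, 21.5 and 410 in injsNAM, the low library being replicate 2 in both, and to at most 12.3 elsewhere. In injIM, T and NK cell markers gave 7.67, 3.53 and 6.29 and monocyte markers 78.2, 42.8 and 79.7. Fibroblast markers there were also lowest in replicate 2 (401, 275 and 1046). Neutrophil markers (96.9, 112 and 80.2) and endothelial markers (16.2, 25.5 and 12.7) were instead highest in it. In IM, conventional dendritic cell markers (544, 264 and 623) and mast cell markers (661, 512 and 547) were lowest in replicate 2. In recsNAM, monocyte markers gave 90.2, 162 and 128, and T and NK cell markers 10.5, 2.74 and 11.8. Of 8 markers of plasmacytoid dendritic cells, which can make much interferon, Klk1 and Pacsin1 were at 0 throughout, and Ccr9, Cox6a2 and Cd300c reached at most 6.97 CPM. Siglech measured 54.3, 45.5 and 45.2 in IM, 21.2, 22.3 and 3.42 in injIM and 5.67, 15.5 and 4.10 in recsNAM. Most of the summed level of this list was Tcf4, which other cells also express, and in sNAM replicate 2 it was Tcf4 alone (188 CPM). Between groups, conventional dendritic cell markers summed to 264 to 623 CPM in IM, between 101 and 261 in injIM, between 1562 and 2706 in sNAM, between 441 and 970 in injsNAM and between 343 and 521 in recsNAM. Mast cell markers summed to 512 to 661 in IM, between 241 and 263 in injIM and between 178 and 255 in recsNAM. The part of these cells in the member values was not tested.

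**Figure D3:**
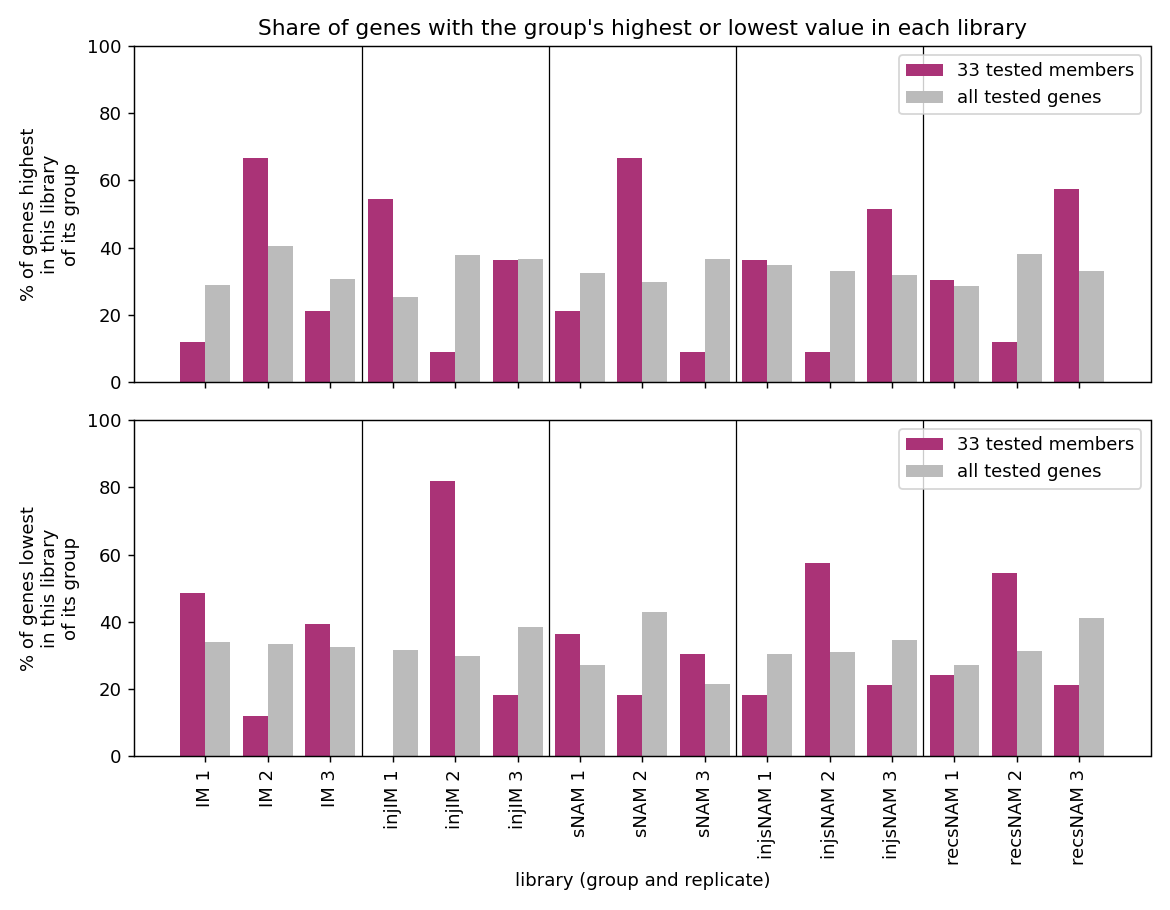
For each library (x axis), bars give the percentage of genes whose highest (top) or lowest (bottom) value within the group of 3 lies in that library, for the 33 tested members and all 8656 tested genes. The members' bars reach 66.7% for the highest value in IM replicate 2 and 81.8% for the lowest value in injIM replicate 2.

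The comparison of injIM with IM asked what the punch changed in interstitial macrophages. Oasl1 fell, from 4384 ± 1334 to 2320 ± 694 normalized counts (SD, 3 libraries each; log2 difference -0.89, SE 0.25, limma adjusted p = 0.0291). Oas3 rose from 92.7 ± 75.2 to 268 ± 77.6 (log2 difference 0.98, SE 0.29, limma adjusted p = 0.0402). The other 31 tested members did not pass. Irf7 measured 2242 ± 1113 against 1024 ± 1020 (log2 difference 1.31, SE 0.52, adjusted p = 0.167), and Zbp1, Oas1a, Rtp4 and Ifnar1, each with a positive difference and an unadjusted p under 0.05, had adjusted p of 0.181 to 0.212. With 2 of 33 called where 8.18% of all tested genes were called, the share of members was near the background. An unadjusted p under 0.05 was found for 7 of 33 members (21.2%) and 20.0% of all tested genes. The median log2 difference was 0.14 over the members and 0.03 over all tested genes. By ranges alone, Oas3 and Irf9 lay above IM in all 3 libraries (13.5% of all tested genes) and Oasl1 below (11.4%).

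Both calls in this comparison depended on single libraries and on the model. Without IM replicate 2 there were 6 calls, with Zbp1, Oasl2, Irf7 and Ifit2 higher beside Oas3, and Oasl1 lower, while 9.54% of all tested genes were called. Without IM replicate 1 or IM replicate 3 no member passed, where 4.82% and 4.60% of all tested genes did. Without injIM replicate 1 or injIM replicate 3 only Oasl1 did (4.96% and 8.61% of all tested genes). Without injIM replicate 2 Oas3 and Rtp4 passed as higher and Oasl1 did not (5.54% of all tested genes passed). With edgeR and DESeq2 on the recovered reads neither gene passed (adjusted p of 1 for each).

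The comparison of recsNAM with injIM asked how recruited nerve-associated macrophages differed from interstitial macrophages of the same injured skin. Ifnar2 was higher in recsNAM (6774 ± 317 against 4926 ± 213, log2 difference 0.45, SE 0.12, limma adjusted p = 0.0267). It was the single call among 33 tested members, where 7.53% of all tested genes were called. Parp14 measured 395 ± 103 against 1037 ± 344 (log2 difference -1.17, SE 0.38, adjusted p = 0.0655), and Oasl1 1181 ± 340 against 2320 ± 694 (log2 difference -0.91, SE 0.30, adjusted p = 0.0794). For Oasl2 the values were 2421 ± 627 and 1323 ± 455 (log2 difference 0.85, SE 0.38, adjusted p = 0.218). The median log2 difference was 0.03 over the members and -0.02 over all tested genes. Irf9 and Ifnar2 lay above injIM in all 3 libraries (11.4% of all tested genes), and Ifi204, Parp14 and Tor3a lay below (12.5%). No member passed without injIM replicate 1, recsNAM replicate 1 or recsNAM replicate 2, where 4.12%, 3.14% and 6.04% of all tested genes passed. Without injIM replicate 3 both Parp14 (lower) and Ifnar2 (higher) passed (10.4% of all tested genes). Without recsNAM replicate 3 Oasl1 and Parp14 passed as lower and Ifnar2 did not (7.26% of all tested genes passed). Without injIM replicate 2 the single call was Oasl1, lower (5.57% of all tested genes). With edgeR the adjusted p of Ifnar2 was 0.861 and with DESeq2 0.892. This comparison shares the injIM libraries with the one before it.

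**Figure D4:**
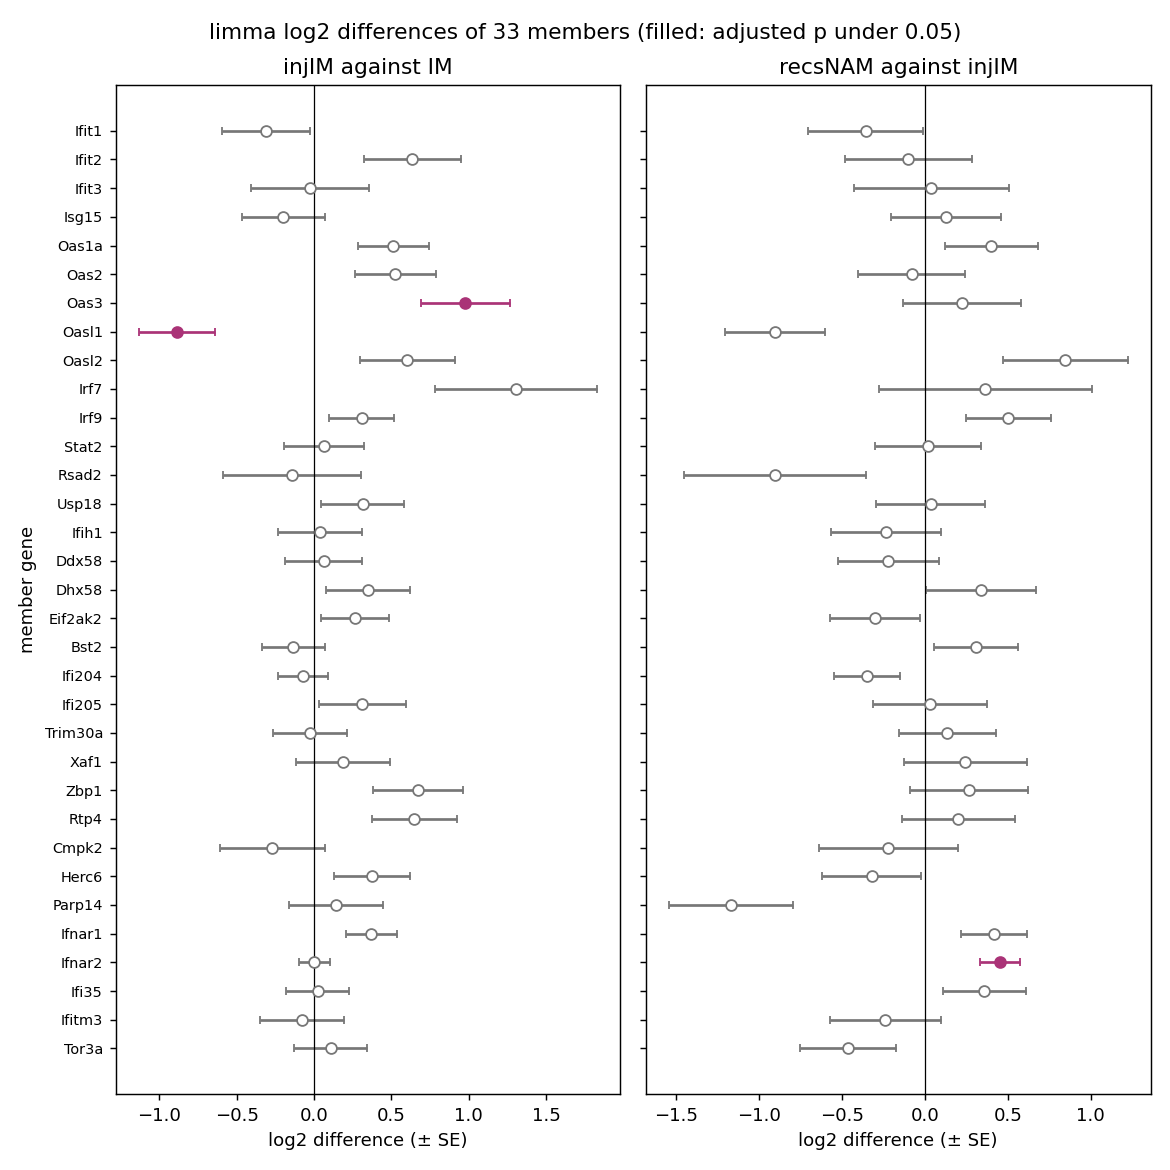
Log2 differences with SE (x axes) of the 33 tested members (y axis) for injIM against IM and recsNAM against injIM, on the log2(normalized count + 100) scale. Filled points are those with a limma adjusted p under 0.05: Oas3 at 0.98 and Oasl1 at -0.89 in the first panel and Ifnar2 at 0.45 in the second. Both panels use the injIM libraries, so their values are not independent.

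In the 5 contrasts that involve the sNAM or injsNAM libraries, no member passed in limma. For sNAM against IM, 1.05% of all tested genes were called, none of the members had an unadjusted p under 0.05, and Ifi35 had the smallest adjusted p (0.372, with 1341 ± 961 against 425 ± 31.8 normalized counts). Ifih1, Trim30a and Ifi35 lay above IM in all 3 libraries (9.57% of all tested genes), and Oasl1, Dhx58 and Ifi204 lay below (18.4%). With edgeR 2 of 38 tested members passed (2.68% of 13678 genes did), Dhx58 and Ifit3b, both lower, and both had no read in sNAM. DESeq2 called 4 of 38 (8.21% of 23686 genes), of which Ifi35 was higher and Dhx58, Mx1 and Ifit3b lower. In sNAM replicate 2, 25.8% of the tested genes had no read. Without that library limma called no member (0.912% of all tested genes), and the edgeR and DESeq2 fits were not repeated without it.

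For injsNAM against sNAM, which asked what the punch changed in resident nerve-associated macrophages, no tested gene was called (0%). Oasl2 came closest among the members, at 2426 ± 1639 against 454 ± 782 (log2 difference 3.09, SE 1.18, adjusted p = 0.613). It was the 1 member with an unadjusted p under 0.05, where 6.77% of all tested genes had one. Ifi204 and Zbp1 lay above sNAM in all 3 libraries (7.35% of all tested genes) and no member lay below (4.69%). DESeq2 called 7 of 38 members (7.92% of the 23686 genes with any read) and edgeR none (0.812% of 13678). The DESeq2 calls were Ifi44, Dhx58, Mx1, Ifit2 and Ifit3b as higher, and Cmpk2 and Mx2 as lower. Of these, Ifi44, Dhx58 and Ifit3b had no read in any sNAM library, and Cmpk2 had none in any injsNAM library. Mx2 reached 1167 in sNAM replicate 2 and at most 52 in any other library. The difference between the injury responses of both populations gave no call either (0%). No member had an unadjusted p under 0.05 there, against 5.13% of all tested genes. DESeq2 called 3 of 38 (3.66% of all genes), Dhx58, Mx1 and Ifit3b, all with a positive difference, and edgeR 0 (0.0512%). For injsNAM against injIM, 0.485% of tested genes were called. No member had an unadjusted p under 0.05, against 11.7% of all tested genes. Cmpk2 lay below injIM in all 3 libraries (12.0%), and no member lay above (8.92%). For recsNAM against injsNAM no tested gene was called (0%), Cmpk2 lay above in all 3 libraries (7.29%) and Ifi204 below (6.40%). DESeq2 called Cmpk2 in both of the last pairs, lower in injsNAM each time, where it called 5.63% and 4.42% of all genes, and edgeR called no member. Dhx58 (421 ± 191 against 111 ± 158) was the 1 member with an unadjusted p under 0.05 in the last comparison, against 7.15% of all tested genes.

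Genes upstream of the members came from lists of the pathway. Calls on these lists stand beside the shares of all tested genes called. These were 8.18% for injIM against IM, 7.53% for recsNAM against injIM and 1.05% for sNAM against IM. Of 20 type I and III interferon genes, 17 had no read in any library and none was tested. Ifnb1 reached 21.2 normalized counts (29 reads) in IM replicate 2, Ifna13 12.4 (17 reads) and Ifnk 8.04 (11 reads), each highest in that library, and Ifnb1 had reads in 5 libraries, all of IM or injIM. Among the kinases, STATs and feedback genes, Stat3, a STAT of cytokine receptors such as that of interleukin-10, fell in injIM against IM (14498 ± 2406 against 19645 ± 1430, adjusted p = 0.0185).

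Of 17 tested sensors and adaptors upstream of interferon, 1 was called in injIM against IM, where 8.18% of all tested genes were called. It was the transcription factor Irf5, which fell (8285 ± 512 against 11718 ± 421, limma adjusted p = 0.00152). Tlr7, the endosomal sensor of single-stranded RNA, fell in recsNAM against injIM (799 ± 341 against 1785 ± 265, adjusted p = 0.00587) and in sNAM against IM (adjusted p = 0.0131), where it measured 0.963, 2.91 and 592. Of 50 tested other interferon-stimulated genes, 2 rose in injIM against IM, where 8.18% of all tested genes were called in either direction. Lgals3bp, a secreted scavenger-receptor glycoprotein, rose from 3088 ± 729 to 6449.9 ± 881 (adjusted p = 6.7e-05), and Shisa5 measured 11467 ± 505 against 8858 ± 548 (adjusted p = 0.0284). In recsNAM against injIM, 2 rose and none fell, Stat4 (857 ± 311 against 122 ± 31.0, limma adjusted p = 0.000439) and Ifitm1 (255 ± 62.3 against 90.5 ± 26.8, limma adjusted p = 0.029). There 7.53% of all tested genes were called. In sNAM against IM, the sensor Tlr8 fell (adjusted p = 0.0341), with 0, 0 and 113 against 551, 646 and 628. The Tlr7 and Tlr8 calls of sNAM against IM were both lost in some settings. No gene was called there when 10 rather than 100 was added before the log2, nor once the first sNAM library was dropped. Both genes were lowest in sNAM replicates 1 and 2, where 11.6% and 25.8% of tested genes had no read.

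Of 17 tested genes linked to interferon-gamma, Gbp9, a guanylate-binding protein, rose and the adhesion molecule Icam1 fell in injIM against IM (limma adjusted p = 0.0471 and 0.0259). There 8.18% of all tested genes were called. Gbp9 measured 262, 281 and 122 in IM and 457, 516 and 499 in injIM. In recsNAM against injIM, Ifngr1, the ligand-binding receptor chain, rose (6157 ± 350.5 against 3391 ± 189, adjusted p = 0.000299), as did Ciita, the activator of MHC class II genes (277 ± 27.3 against 112 ± 46.2, adjusted p = 0.0429). None of the genes on these lists passed in the comparisons of injsNAM with sNAM or injIM, of recsNAM with injsNAM, or in the difference between the injury responses. All calls on these lists come from the weighted limma fit. Of all genes, 708 were called there in injIM against IM, but 18 without group weights, 3 with edgeR and 73 with DESeq2. In recsNAM against injIM these numbers were 652, 22, 10 and 235. Which listed genes kept their call is not given, apart from the settings named above in which sNAM against IM had no call.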

How the data were processed

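RNA-seq was measured in 15 libraries made with the SMARTer Ultra Low Input kit from 250 pg of RNA with 13 PCR cycles and Nextera XT, per the labels' protocols. The submitters' processing notes list STAR 2.7.2b, cutadapt, bcl2fastq 2.18, DESeq2 1.24.0, R 3.6.1 and build mm10. How reads were counted, with which annotation and strand setting, is not stated in them. The authors deposited a normalized signal, in which each library's reads per gene are scaled by a constant. In every library 100% of values above 0 were whole multiples of what 1 read is worth (tolerance 0.01 reads), so reads were recovered by division. Those reads carry no molecular identifiers.

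The main test was limma 3.58.1 (trend, robust) on log2(value + 100) for genes with a mean of 100 or more, with an array weight for each group, from 0.175 in sNAM and 0.311 in injsNAM to 1.67 in recsNAM, 3.21 in injIM and 3.43 in IM, in 7 contrasts of all 15 libraries. A log2 difference on this scale understates the change of low genes. Adjusted p-values are Benjamini-Hochberg over the 8656 genes, called under 0.05. Alternatives were pseudocount 10, no filter, no weights, TMM scaling, edgeR 4.0.16, DESeq2 1.42.0, the replicate block, leaving out each library and, added later, a fit without sNAM and injsNAM. Marker sums are CPM of recovered reads. Genes named with every library's value were the receptor chains and factors, the members called, and the 2 most abundant of each functional class; the other members' values were added after they were seen, and pathway genes are those called, of which some are not reported here. The members, lists and test were chosen with earlier results of these data known. Coordinates and promoters are RefSeq's on GRCm38.p6; exon lengths and transcripts are GENCODE M21.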

Additional observations from a re-analysis of the deposited data

How the results depend on the processing

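The number of interferon genes called in each comparison was recomputed under each alternative. For injIM against IM it was 2 (of 708 genes called in all); it was 1 with a pseudocount of 10 and 0 without the filter (315 genes in all), without group weights (18), with edgeR (3), with DESeq2 (73) and, in the fit without sNAM and injsNAM libraries that was added after seeing the data, 0 (565). For recsNAM against injIM it was 1 (of 652); it was 0 without the filter (362), without group weights (22), with edgeR (10) and with DESeq2 (235). In the added fit it stayed 1 (496), but the gene was Parp14, lower, and Ifnar2 had an adjusted p of 0.0737. For sNAM against IM it was 0 (of 91) and became 2 with edgeR (367) and 4 with DESeq2 (1944). For injsNAM against sNAM it was 0 (of 0), 1 without group weights (363, the gene being Oasl2) and 7 with DESeq2 (1876). With DESeq2 it was 1 for injsNAM against injIM (1334, main 42), 1 for recsNAM against injsNAM (1046, main 0) and 3 for the difference between injury responses (867, main 0). TMM scaling moved none of these counts. Leaving out each library gave 0 to 6 for injIM against IM and 0 to 2 for recsNAM against injIM, and 0 throughout for the other 5.

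Oasl1, Oas3 and Ifnar2 kept their direction in every setting run; Oasl1 stayed called in 3 of 8 settings on all replicates and 3 of 6 with a library left out, Oas3 in 2 of 8 and 2 of 6, and Ifnar2 in 3 of 8 and 1 of 6. The cause of each loss was not tested. The sign of the members' median difference for sNAM against IM turned from -0.19 to 0.27 with edgeR and 0.40 with DESeq2, and for recsNAM against injsNAM from 0.03 to -0.13 and -0.21.

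The labels do not tie replicate numbers to animals, so whether same-numbered libraries share a mouse is not known, and the numbers did not meet the rule for pairing. The deviations of same-numbered libraries correlated between -0.021 and 0.388, and not above 0.1 in every pair of any comparison, although each library correlated best with its own number in 6 of 6 libraries for injsNAM against sNAM and for recsNAM against injsNAM. With the replicate block, 4 members were called for recsNAM against injIM (1211 genes in all), namely Ifnar1 and Ifnar2 higher and Oasl1 and Parp14 lower, and 3 for injIM against IM (928), with Ifnar1 higher added; 0 were called in the other 5. Depth was lowest in sNAM replicate 2, where 3 reads were worth 8.73 normalized counts. In sNAM replicates 1, 2 and 3, at 18.6, 5.64 and 9.09 M reads, 10, 9 and 10 of the 39 members had no read. The part of depth in these counts was not tested.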
